A study of Mus musculus with 4 samples.

Results

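The Toll-like receptor genes and Cd180 were examined for N6-methyladenosine (m6A), the commonest methyl mark inside messenger RNA. The genes were Tlr1, Tlr2, Tlr3, Tlr4, Tlr6, Tlr7, Tlr8, Tlr9, Tlr13 and Cd180, and a called site counted as theirs when the authors' gene column held that name alone. These 10 held 255 of 45668 called sites in mouse 1 and 263 of 47747 in mouse 2. The cells were bone marrow-derived macrophages (BMDM) of 2 wild-type mice, all exposed to lipopolysaccharide (LPS) for 3 h, so resting cells were not compared. Strain, sex and age are not given in the labels, and the letters NTC in both table names are left unexplained there. From each animal came 1 library of RNA precipitated with the antibody (IP) and 1 of input RNA, and m6A-eCLIP places each site at 1 nucleotide from the positions where reads of antibody-bound fragments start. The fold (read starts in the IP over the input of the same mouse) and the score of a site are the authors' own values.

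Toll-like receptors carry leucine-rich repeats that bind microbial molecules and, inside the cell, a TIR domain that recruits adaptors and starts NF-kB and interferon signalling. Some act at the cell surface on bacterial lipids and lipoproteins, others in endosomes on nucleic acids. CD180 (RP105) has a related ectodomain but no TIR domain, pairs with the protein of Ly86 and modulates responses to LPS. In mRNA, m6A is written mainly by the METTL3-METTL14 complex on the consensus DRACH, occurs often near stop codons and in long exons, and is bound by reader proteins that influence mRNA decay and translation.

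Letters could be read for 13 of the receptor sites, those inside RefSeq windows (GRCm38.p6) that reach from 250 bases before to 50 bases after an annotated transcript start. Only some of them are printed, since such sites give the only view here of which base the method called. The printed lines are no representative sample, and the counts that follow also take in sites not printed. The capital marks the called nucleotide, and each line is read 5' to 3' on the transcript's strand.
Tlr2, chr3:83841588-83841608, minus strand: cccttccctcActtccaggtc
Tlr2, chr3:83841574-83841594, minus strand: ccaggtcttcAgtcttcctag
Cd180, chr13:102693558-102693578, plus strand: agctcccagcAtttcggttct
Tlr13, chrX:106143253-106143273, plus strand: gacctaaaacAgaatgtcatt
Tlr6, chr5:64959156-64959176, minus strand: ctacgaattcAttaaagtctg
Tlr1, chr5:64933553-64933573, minus strand: aggagcttgaAtttcttactg

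The called base was an adenosine at all 13 receptor sites and at all 6115 called sites of any gene in such windows. None of the 12 receptor sites with enough flanking letters was the central A of DRACH, a motif of 5 bases in which A is followed by C and then by A, C or T, and preceded by A or G and, before that, by A, G or T. Only the transcript's strand was searched. With 12 sites a share of 0 allows up to about 25%, taken as 3 over the number of sites and not as an exact interval. Over all genes 192 of 5996 called sites in the windows (3.20%) were on the motif, against 7.72% of all adenosines there, and 98.4% of the windows held the motif somewhere on that strand. The base before the site was C at 8 of the 12 receptor sites (66.7%), at 61.8% of called sites of all genes and at 29.4% of all adenosines in the windows. Of the 300 bases of a window 250 lie before the annotated start, so these adenosines are no matched background for sites in RNA. At the printed sites, the first Tlr2 line had 44.1 in mouse 1 and 18.3 in mouse 2, the second Tlr2 line had 10.7 and 11.3, and Cd180 had 14.5 and 10.8. The Tlr13 site had 10.03 and 4.49, the Tlr1 site 2.51 and 1.65. The Tlr6 site (5.52 and 2.89), annotated by the authors as a distal intron, lay exactly at a RefSeq transcript start. These sites lie at or near annotated transcript starts, and whether the mark at them is m6A in particular was not tested. The letters around coding and 3' UTR sites were not analysed here.

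A site was counted as enriched where its fold was at least 8. In mouse 1, 232 of the 255 receptor sites were enriched (91.0%, exact 95% interval 86.8% to 94.2%), against 81.7% of all called sites. In mouse 2, 232 of 263 were enriched (88.2%, 83.7% to 91.8%), against 79.1% of all called sites. Of 230 receptor sites called in both mice, 203 were enriched in both (88.3%), against 76.9% of all sites called in both. The median fold of receptor sites was 22.1 in mouse 1 and 22.1 in mouse 2, against 15.04 and 14.4 over all sites. At a fold of at least 16 the shares were 69.0% and 65.8% of receptor sites, against 47.4% and 46.3% of all sites. These intervals cover counting error only, sites of a transcript are not independent, and the tables hold no read numbers. The number and fold of sites can follow transcript abundance as well as methylation, and these cannot be told apart here. The 2 within-mouse folds of a site allow a paired test of IP over input with 1 residual degree of freedom per site. Its variance was moderated in limma's manner over all 38082 sites called in both mice, with 22.7 prior degrees of freedom borrowed across sites. It called all 230 receptor sites (adjusted p under 0.05), against 99.3% of all such sites. Only sites already called are listed, by a rule that no source used here gives. Among those called in both mice the lowest fold was 0.363 in mouse 1 and 0.275 in mouse 2. Nearly all of them passed, so this test sets no receptor site apart. No second treatment or genotype was measured, and the values below are descriptions.

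All 10 genes carried shared enriched sites (enriched at the same nucleotide in both mice), against 86.9% of all genes with a called site in both. Their number ran from 8 in Tlr6 to 29 in Cd180, with a median of 21.5 per gene, while the median over all 7827 genes listed for each mouse was 2. By this number Cd180 ranked 24, Tlr2 26, Tlr7 29, Tlr13 47, Tlr9 61, Tlr3 73, Tlr4 118, Tlr8 245, Tlr1 289 and Tlr6 806 of 7827. The strongest site of the receptors had a median fold (as the geometric mean of both mice) of 85.3, against 28.0 over 6798 genes with such a site. Among 912 genes with at least 10 sites called in both mice, the median fold over a gene's sites placed Tlr2 at rank 39 and Cd180 at 65, while the other 8 receptors lay between rank 289 and rank 621. Tlr2 and Cd180 were thus high by number and by typical fold, whereas Tlr4 (rank 596) and Tlr9 (rank 621) had many sites with a typical fold below the middle of such genes.

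**Figure D1:**
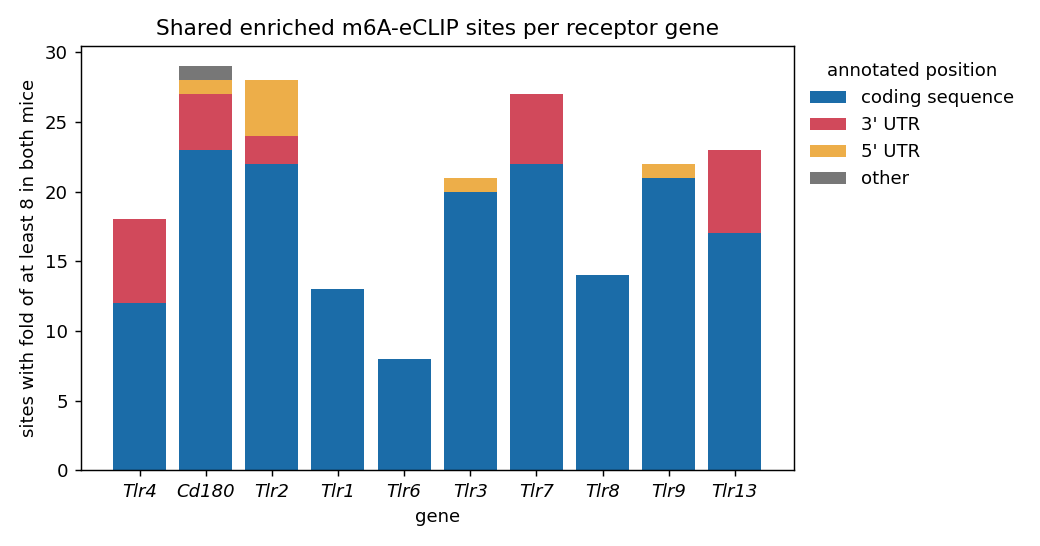
Number of sites with a fold of at least 8 in both mice (vertical axis) for each receptor gene, stacked by the authors' annotated position. Cd180 (29), Tlr2 (28) and Tlr7 (27) had the most and Tlr6 (8) the fewest, and coding sequence made up most of every bar.

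Most shared enriched sites of the receptors were coding. Coding sequence held 172 of the 203 shared enriched sites (84.7%, exact 95% interval 79.0% to 89.4%), against 42.4% of all 29288 shared enriched sites. The 3' UTR held 23 (11.3%), against 37.3%, and the 5' UTR held 7 (3.45%), against 13.6%. In Tlr1, Tlr6 and Tlr8 every shared enriched site was coding. Tlr4 had the lowest coding share, 12 of 18 (66.7%), followed by Tlr13 with 17 of 23 (73.9%). Within coding sequence alone, 92.9% of 212 receptor sites in mouse 1 and 91.6% of 214 in mouse 2 were enriched, against 87.7% and 84.7% of all coding sites. The coding median fold was 23.1 in each mouse, against 17.05 and 16.4 for all coding sites. Of the 3' UTR sites, 23 of 23 in mouse 1 and 26 of 27 (96.3%) in mouse 2 were enriched, against 87.7% and 85.7% of all 3' UTR sites. Their median folds, 28.6 and 27.0, were above those of the coding receptor sites, against 17.4 and 17.3 for all 3' UTR sites. Of the 5' UTR sites, 10 of 15 (66.7%) in mouse 1 and 8 of 16 (50.0%) in mouse 2 were enriched, against 64.7% and 61.9% of all 5' UTR sites. Exon lengths were not used here, so the share in coding sequence was not set against how much of each transcript is coding, and the difference from other genes was not tested.

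**Figure D2:**
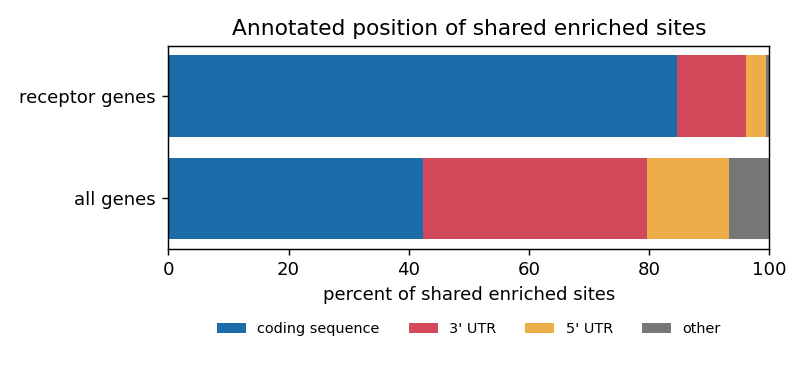
Percent of shared enriched sites (horizontal axis) by annotated position, for the receptor genes above and for all genes below. Coding sequence held 84.7% in the receptor genes, against 42.4% over all genes.

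Among the surface receptors, Tlr4 encodes the receptor for LPS, the agent given to these cells (chromosome 4, 66827551 to 66846581 in RefSeq). It had 24 called sites in mouse 1 and 26 in mouse 2, with 18 shared enriched sites. Its strongest sites lay in the 3' UTR just past the coding sequence, at 66841559 (folds of 129 in mouse 1 and 126 in mouse 2), 66841602 (60.2 and 140) and 66841575 (47.6 and 107). These 3 sites fell within 44 bases. The last called coding site, at 66841474, and the first called 3' UTR site, at 66841490, were 16 bases apart, which brackets the end of the annotated coding sequence, and 7 of the 18 shared enriched sites lay within 200 bases of that last coding site. Its other coding sites were weaker, the strongest of them at 66841361 having folds of 26.6 and 45.3. Over sites called in both mice, Tlr4 also had the largest median absolute difference between the mice of the 10 genes, 0.89 on the log2 scale, with 16 of 21 sites higher in mouse 2.

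Cd180, whose protein restrains or tunes LPS responses depending on the cell type, had 32 called sites in each mouse and 29 shared enriched sites (chromosome 13, 102693547 to 102706631). Its strongest was coding, at 102706258, with folds of 266 in mouse 1 and 256 in mouse 2. The next, at 102706249, had 188 and 125, and a site at 102706186 had 112 and 201. Together the 3 spanned 73 bases, at the 3' end of the called coding sites. This stretch also held the site with the highest score in the family, 102706241, with scores of 162 and 179 and folds of 103 and 77.9. By the highest mean score of any site Cd180 ranked 22 of 7827 genes. The sites next to these in the 3' UTR were lower, from 18.8 to 34.6 in mouse 1 and from 19.4 to 44.3 in mouse 2. A further 4 sites, annotated by the authors as distal intron at 102707163 to 102707549, lay beyond the RefSeq end of the gene at 102706631, and 1 of them, 102707418, was enriched in both mice (12.03 and 12.5).

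Tlr2 encodes the receptor for bacterial lipoproteins, which works as a dimer with the protein of Tlr1 or Tlr6 (chromosome 3, 83836272 to 83841824). It had 32 and 33 called sites and 28 shared enriched ones, with the highest median fold of the family (37.4 in mouse 1 and 55.8 in mouse 2). By fold, strong sites were spread over the whole coding stretch and not gathered at one end. They included 83838241 (196 and 165), 83836437 (201 and 131) and 83836933 (123 and 135), which spanned 1805 bases. By score, several of the highest coding sites lay close together nearer the 3' end. Among these were 83836658 (scores of 130 in mouse 1 and 134 in mouse 2), 83836627 (127 and 132) and 83836622 (125 and 131). Another high-scoring site, 83837155 (127 and 129), lay further upstream. The site that differed most between the mice in any receptor was in its 3' UTR at 83836370, at 8.60-fold in mouse 1 and 86.7-fold in mouse 2, a difference of 3.33 on the log2 scale, while the scores were 55.7 and 74.9. Without read numbers, a difference in the IP cannot be told from a difference in the input, at this or any other site. Tlr2 also carried 4 of the 7 shared enriched 5' UTR sites of the family, the strongest being the first sequence printed above.

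The partner genes Tlr1 and Tlr6, neighbours on chromosome 5 (64924680 to 64933600 and 64953092 to 64970942), had fewer shared enriched sites than Tlr2. Tlr1 had 16 called sites in each mouse and 13 shared enriched ones, all coding. Its strongest were 64925094 (41.1 and 91.5), 64927040 (62.2 and 59.7) and 64927099 (46.1 and 60.7), near opposite ends of the coding stretch. Tlr6 had 15 and 18 called sites and 8 shared enriched ones, with a highest fold of 33.1 in mouse 1 and 31.3 in mouse 2. The strongest Tlr6 site, 64955135, had folds of 28.6 and 31.3, and of its 12 sites called in both mice only 2 were higher in mouse 2. The coding sequences of these paralogues are closely similar, and how the authors treated reads that fit both is not given in the sources used here, so their split between the genes is uncertain.

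**Figure D3:**
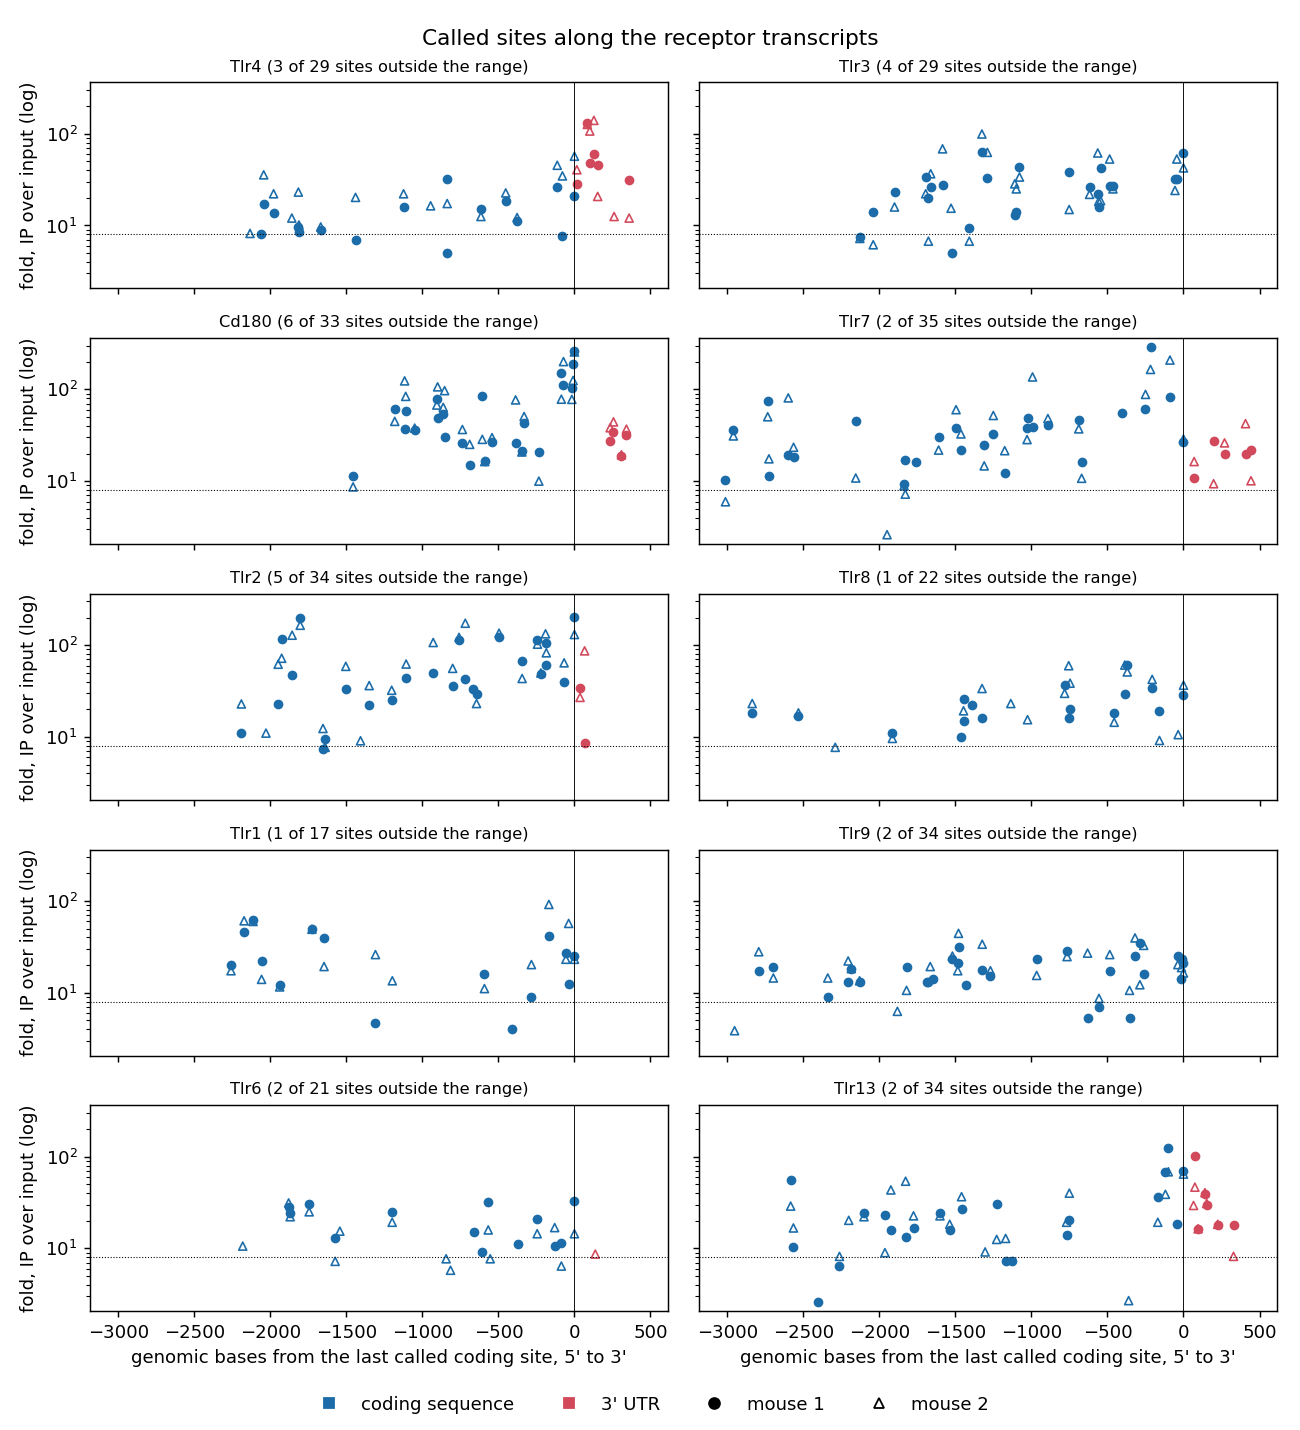
Fold of each called site (vertical axis, log scale, IP over input) against its distance in genomic bases from the last called coding site of the gene (horizontal axis, negative towards the 5' end), filled circles for mouse 1 and open triangles for mouse 2. Dotted lines mark a fold of 8, the most distant sites are left out as counted in each title, and the highest folds of Tlr4, Cd180, Tlr7 and Tlr13 lie near the 3' end of the coding stretch while those of Tlr2 are spread along it.

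The endosomal receptors bind nucleic acids. Tlr7, for single-stranded RNA, and Tlr8 are close relatives and neighbours on the X chromosome (167303380 to 167330574 and 167241123 to 167264329). Tlr7 had 33 and 31 called sites and 27 shared enriched ones, of which 5 were in the 3' UTR. Its strongest sites were coding, at 167305596 (287 and 165), 167305468 (81.9 and 209) and 167305629 (61.9 and 88.3), within 162 bases near the 3' end of the coding sites. Tlr8 had 17 and 19 called sites and 14 shared enriched ones, all coding, led by 167243180 (60.2 and 51.03) and 167243196 (29.6 and 60.7). It had the smallest median absolute difference between mice, 0.36 on the log2 scale over 14 sites. No site was annotated to the 3' UTR of Tlr8, while 2 sites without a gene name, enriched in both mice, lay inside its RefSeq bounds.

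Tlr13, on the X chromosome from 106143275 to 106160493, senses bacterial ribosomal RNA in mice. It had 29 and 31 called sites and 23 shared enriched ones, with 6 in the 3' UTR. Its strongest sites flanked the end of the coding sequence, with the coding sites 106159534 (123 and 68.4) and 106159634 (69.7 and 64.5) and the 3' UTR site 106159709 (102 and 46.5), all within 176 bases. Of its 23 shared enriched sites, 8 lay within 200 bases of the last called coding site. Besides Tlr4, the same count gave 6 of 28 in Tlr2, 5 of 29 in Cd180, 4 of 27 in Tlr7 and 2 of 8 in Tlr6. The matching share over all genes was not computed, so these counts set no receptor apart. Tlr9, the receptor for unmethylated CpG DNA (chromosome 9, 106222598 to 106226876), had 31 and 29 called sites and 22 shared enriched ones, with a highest fold of 35.1 in mouse 1 (at 106226308) and 44.3 in mouse 2 (at 106225115). Its strongest site over both mice, 106225115, had 31.1 and 44.3. No 3' UTR site was called for it. Tlr3, the receptor for double-stranded RNA (chromosome 8, 45395665 to 45411075), had 26 and 28 called sites and 21 shared enriched ones, led by 45398321 (63.2 and 99.2) and 45396995 (62.2 and 42.4), and it too had none in the 3' UTR. A separate upstream coding stretch of Tlr3 held the site 45402860, with folds of 43.1 and 44.3.

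The 3 strongest shared sites of a gene spanned 44 bases in Tlr4, 73 in Cd180, 136 in Tlr6, 162 in Tlr7, 176 in Tlr13 and 181 in Tlr8. In the other 4 genes they spanned 1162 bases in Tlr9, 1327 in Tlr3, 1805 in Tlr2 and 2006 in Tlr1. No gene lay between these sets, which were told apart after the values were seen. The split rests on ranking sites by mean log2 fold. In Tlr6 the site 64955125, counted among the 3, was nearly tied with the distant 64953822, which was left out (mean log2 fold 4.529 and 4.497). Ranking by mean score kept the strongest site only in Tlr4 and Tlr6, and spans under that ranking were not computed.

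Sets of 5 genes each, the surface receptors with Cd180 and the nucleic acid receptors, had 96 and 107 shared enriched sites, of which 81.2% and 87.9% were coding. Their median folds were 25.9 and 20.3 in mouse 1 and 23.1 and 21.7 in mouse 2. Called coding sites were closely packed, with a median distance between neighbours from 48 bases in Cd180 to 115 in Tlr6. Of neighbouring coding pairs over the 10 genes, 8 lay within 5 bases, and merging such sites of any annotation left 199 of the 203 shared enriched sites.

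The mice agreed on most receptor sites, though folds of single sites varied. Mouse 2 also held 90.2% of the sites of mouse 1, against 83.4% over all genes, and mouse 1 held 87.5% of those of mouse 2, against 79.8%. The 25 sites called in mouse 1 alone had a median score of 17.6, and the 33 called in mouse 2 alone had 16.1, while sites called in both had 54.5 in mouse 1 and 61.5 in mouse 2. The median absolute difference in log2 fold was 0.56 for the receptors and 0.56 for all sites called in both mice. A difference of at least 1 on the log2 scale was found at 59 of 230 receptor sites (25.7%), against 26.8% of all. The site of each gene that differed most was higher in mouse 2 in 8 of the 10 genes. Besides that of Tlr2, these were 64926235 in Tlr1 (4.68 in mouse 1 and 26.0 in mouse 2), 66841395 in Tlr4 (7.69 and 34.7) and 106225964 in Tlr9 (5.35 and 27.0), which were enriched in mouse 2 alone. Those of Cd180 (102705141, 36.9 and 124), Tlr7 (167307979, 19.4 and 80.9), Tlr8 (167243565, 16.05 and 59.7) and Tlr13 (106157806, 13.4 and 53.9) were enriched in both. For Tlr7 this was close to a tie, 2.061 against 2.059 on the log2 scale at 167307535, which was higher in mouse 1 (45.1 and 10.8). Tlr3 (45398673, 20.1 and 6.74) and Tlr6 (64953255, 33.1 and 14.4) differed most at sites that were higher in mouse 1. In mouse 1 the scores of the 3 sites enriched in mouse 2 alone were low (11.7 in Tlr1, 19.5 in Tlr4 and 18.4 in Tlr9), while the Cd180 site had scores of 117 and 120. The fold was higher in mouse 2 at 127 of 230 receptor sites (55.2%), against 51.2% of all. Across the 230 sites Pearson's r between the log2 folds was 0.75 and Spearman's rho 0.71. These points share libraries and transcripts, so no p is given.

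**Figure D4:**
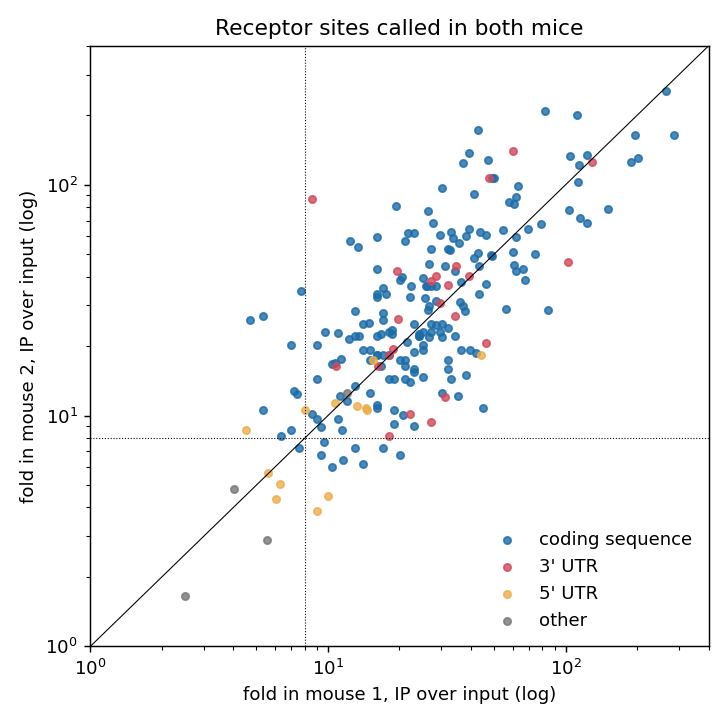
Fold in mouse 1 (horizontal axis) against fold in mouse 2 (vertical axis), both log scales, for the 230 receptor sites called in both mice, coloured by annotated position. The line marks equal folds and dotted lines a fold of 8: 203 sites lie above 8 in both mice, 10 only in mouse 1, 10 only in mouse 2, and 7 below 8 in both.

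The other family genes of the mouse, Tlr5, Tlr11 and Tlr12, had no called site in either mouse. Of 31 genes for partners, trafficking, adaptors and kinases of the pathway, 24 had called sites in both mice and 23 of these carried a shared enriched site (95.8%), against 86.9% of genes. They held 141 such sites with a median of 5 per gene carrying one, and 45.4% were coding. By the mean log2 fold of both mice, the strongest sites were those of Tab2, a TAK1-binding protein (143 in mouse 1 and 143 in mouse 2, coding), Cd14, the LPS co-receptor (147 and 123, coding), Pik3ap1, a PI3-kinase adaptor (107 and 138, coding) and Irf5, a transcription factor (104 and 106, 3' UTR). Peli1, next in that order, had the highest fold of the list's strongest sites in mouse 1, 190, against 57.4 in mouse 2. The TLR4 partner gene Ly96, Lbp, whose product carries LPS, and Hsp90b1, a chaperone of the receptors, had no site called in both mice, and the adaptor Ticam2 had called sites but none enriched in both. Ly86, which encodes the partner of CD180 and was chosen after its values were seen, had 2 shared enriched sites and none in coding sequence.

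All 8 macrophage marker genes had called sites in both mice, and 7 of them had a shared enriched site (87.5%), against 86.9% of all genes, so their enrichment does not set them apart. No site was called for any of 4 B cell, 3 T cell, 3 dendritic cell or 3 stromal markers. Sites were called for Tcf4 and Bst2 among 4 markers of plasmacytoid dendritic cells and for S100a8 among 4 of neutrophils. A missing site does not show that a transcript was absent, and the part of other cells in these values was not tested.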

How the data were processed

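Per the submitters' processing notes, the tools named were cutadapt 2.7, STAR 2.6.0c and UMI-tools 0.5.1, with the builds mm10 and hg38. No source used here names the site caller, the gene annotation or the formula of the score. Poly(A) RNA was selected, per the labels' protocols. The authors deposited 1 table per mouse, each row being 1 nucleotide with a score and a fold. The score of each listed site is above 10, per the file headers and values. The authors' fold, a ratio of IP over input read starts per the file headers, includes a constant of the table (1.003 in mouse 1 and 0.963 in mouse 2), so a ratio of 8 became 7.70 in mouse 2, where 4 receptor sites missed the limit for that reason. Divided by that constant, 62.1% of all folds in mouse 1 and 62.0% in mouse 2 were whole numbers. An input of 1 read start would give a whole number, so many folds may rest on few input reads, which was not tested. Read numbers are not in these tables, so depth is unknown and no error could be given to a fold.

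From these files, sites were joined by nucleotide, strand and gene, and counted at a fold of at least 8. Positions are 1-based ends of the deposited intervals on mm10. Where annotations of a shared site differed, that of mouse 1 was used, which touched none of the receptor sites. RefSeq tables of GRCm38.p6, which shares coordinates with mm10, gave gene bounds for all 10 genes and start windows for 8. The join and the paired test were tested on simulated data. That test set the mean log2 fold of both mice against 0 with a moderated variance of limma's form and Benjamini-Hochberg adjustment, and was added after the data were seen. Its prior was fitted by maximum likelihood, since limma's own estimate of it made 8.72% of calls false in the simulation, against 5.40% with this one. Only 2000 of 20000 simulated sites were shifted, while 99.3% of the sites called in both mice passed. The simulated rates therefore do not carry over to these data. The rule for names took all 10 genes with their strongest sites and most different sites, and up to 4 highest and 4 without enriched sites of the pathway list. The genes and lists were chosen with earlier results of these data known. Alternatives covered the fold limit, the constant, the score, merging, the overlap and each mouse left out. Python 3.11.15, pandas 2.3.3, NumPy 2.4.6, SciPy 1.17.1, Matplotlib 3.10.9, R 4.3.3 and limma 3.58.1 were used.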

Additional observations from a re-analysis of the deposited data

Results flagged for a closer look

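Inside the RefSeq bounds of Tlr8 (chromosome X, 167241123 to 167264329) 2 sites on its strand were enriched in both mice but carried no gene name and were annotated as intergenic, so no count of the receptors holds them. The site at 167241703 was 15.04-fold enriched in mouse 1 and 24.1-fold in mouse 2. The site at 167242318 had 31.1 in mouse 1 and 17.3 in mouse 2. Both lie past the last called coding site of Tlr8, at 167242810, in the direction of transcription.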

How the results depend on the processing

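Of 42 alternative values of the results above, 38 stayed within 1.5 times the count or inside the exact 95% interval of the share, and 4 moved. The share of called receptor sites that were enriched, 89.6% over both tables, became 67.4% with the limit at log2 fold 4, 97.9% with it at log2 fold 2 and 96.7% with a score of at least 20. Choosing the strongest shared site of a gene by mean score in place of mean log2 fold kept the same site in 2 of the 10 genes, Tlr4 and Tlr6. The number of shared enriched sites ran from 144 to 227 over the alternatives that used both mice and a fold limit, against 203. Over all alternatives the coding share ran from 82.6% to 87.5% against 84.7%. Leaving out either mouse gave 232 sites enriched in the mouse that was kept, which are not shared sites, and a coding share of 84.5% to 84.9%. All 10 genes kept at least 1 enriched site under every alternative, shared wherever both mice were used. With the motif allowed within 2 bases, 1 of 10 receptor sites held it. The paired test of IP over input within each mouse (replicate block), an alternative chosen after seeing the data, called 230 receptor sites in place of the 203 shared enriched ones, 82.6% of them coding. It called 37829 of all 38082 sites called in both mice, and 37833 with limma's own prior. Depth is unknown, which limits what single folds can show.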

Other observations

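Over all genes, 3.28% of the 2227 sites near annotated starts that were enriched in both mice lay on DRACH, against 3.16% of the other 3769. A site without a gene name at 167304860 on the X chromosome, inside the RefSeq bounds of Tlr7, was called in mouse 2 alone with a fold of 8.67. Inside those of Tlr8, a nameless site at 167242400 had folds of 9.53 in mouse 1 and 7.70 in mouse 2, and a nameless site at 167241587 was called in mouse 2 alone with 6.74. The RefSeq start of Tlr13, at 106143275, lay downstream of both called 5' UTR sites of the gene, at 106143258 and 106143263.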
